A study of Mus musculus with 54 samples.

Results

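The regions described here are the autosomal 50-kb windows that replicated early in all 4 mouse cell types of the series. They were selected on measured timing: the mean of both alleles, averaged over the profiles of a line and then over lines, had to exceed 2 in each of embryonic stem cells (ESCs), neural precursor cells (NPCs), embryonic fibroblasts (MEFs) and extraembryonic endoderm cells (XEN cells). The rule was met by 5671 of 43941 autosomal windows, or 12.9%, which cover 283.6 Mb. Their timing is therefore a description and carries no test. The allelic difference was not used to choose them and was tested, although a high mean of both alleles limits how late either allele can be.

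The assay was Repli-Seq: cells are sorted by DNA content into an early and a late fraction of S phase, and the DNA newly made in each is sequenced. The 54 libraries form 27 pairs of an early and a late library, and reads were assigned to the parental genomes of F1 hybrid cells, so each pair gave 1 value per allele and window. A value above 0 means more early than late reads. Group by group, the ESCs were 9 profiles of 5 lines grown in 2i medium, which holds 2 kinase inhibitors that keep the cells undifferentiated. Of these lines F121, F1216, F1219 and F123 carry 129 as the first-named parent of a 129/Cas cross, and Cas129 carries Cas first. F123 is labelled male and the other ESC lines female. The NPCs were 3 profiles taken at day 11 of differentiation from F1219 and Cas129, both labelled female, so both NPC lines are also among the ESC lines. The MEFs were 8 profiles of 4 embryos with Cas named first, of which EMB1 and EMB2 are labelled female and EMB3 and EMB4 male. The XEN cells were 2 profiles of a single female C57B6/Cas line. Not used by the rule were 4 profiles of F1216 and F1219 ESCs grown on feeder cells and 1 profile of the male C57B6/129 ESC line V6.5.

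Replication timing is the order in which chromosome segments are copied during S phase, and it is set over domains that hold many origins. Early domains lie mostly in the nuclear interior, are rich in genes and open chromatin, and are copied while late domains at the lamina and nucleolus still wait. Segments that switch timing during development often hold tissue-specific genes, whereas segments that stay early are known for genes that most cells use. Broadly used genes often have promoters rich in the dinucleotide CG, and promoters of genes with narrow expression are more often poor in it.

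The 3 promoters below are shown to make that difference visible. They run from 250 bases before to 50 bases after the gene start (RefSeq, build GRCm38.p6), with each CG in capitals. Polr2j encodes a subunit of RNA polymerase II and lies in a window that was among the earliest in all 4 cell types (chr5:136116441-136116740, plus strand). Racgap1 encodes a GTPase-activating protein of the cytokinesis machinery and lies in the window with the clearest allelic difference described below (chr15:99651607-99651906, minus strand). Olfr1471 encodes an olfactory receptor in a window that was late in all 4 cell types (chr19:13444764-13445063, plus strand).
Polr2j: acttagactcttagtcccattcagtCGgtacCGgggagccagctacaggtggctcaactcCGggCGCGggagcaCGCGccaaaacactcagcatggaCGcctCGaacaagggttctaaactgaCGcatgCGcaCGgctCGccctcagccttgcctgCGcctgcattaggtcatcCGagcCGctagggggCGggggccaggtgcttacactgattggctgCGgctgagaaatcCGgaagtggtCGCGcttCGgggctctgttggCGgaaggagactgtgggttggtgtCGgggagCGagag
Racgap1: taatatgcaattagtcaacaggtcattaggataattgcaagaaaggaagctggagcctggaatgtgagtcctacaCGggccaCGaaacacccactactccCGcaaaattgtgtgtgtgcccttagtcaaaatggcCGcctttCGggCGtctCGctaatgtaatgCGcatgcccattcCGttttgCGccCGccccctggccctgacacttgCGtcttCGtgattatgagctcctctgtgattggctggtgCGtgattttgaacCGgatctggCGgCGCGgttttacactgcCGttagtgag
Olfr1471: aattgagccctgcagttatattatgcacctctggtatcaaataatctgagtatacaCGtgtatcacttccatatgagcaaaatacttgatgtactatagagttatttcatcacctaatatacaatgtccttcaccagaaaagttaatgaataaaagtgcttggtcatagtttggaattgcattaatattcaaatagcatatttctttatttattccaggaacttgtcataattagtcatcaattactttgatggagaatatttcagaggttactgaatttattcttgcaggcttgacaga
The Polr2j promoter holds 25 CG, that of Racgap1 19 and that of Olfr1471 1. Over the 5422 protein-coding promoters in windows early in all cell types the mean was 19.3 CG, against 16.2 over all 14557 autosomal promoters and 4.43 over the 638 in windows below -2 in all 4 cell types. Of the early promoters 74.3% held at least 10 CG, compared with 60.7% of all and 13.9% of the late ones. The letters GGGCGG, searched on both strands and itself holding a CG, occurred in 59.9% of early, 49.0% of all and 11.8% of late promoters. The letters TATAAA, also on both strands, went the other way, with 7.21%, 12.8% and 37.0%. The median GC content of the promoters was 60%, 57.3% and 39% in the same order, and its part in these shares was not tested. CCAAT was about as frequent in each class, at 38.1%, 38.4% and 40.6%. The printed Polr2j and Racgap1 promoters contain CCAAT and GGGCGG on 1 strand or the other, and the Olfr1471 promoter contains none of the 3.

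The windows were not equally early in the 4 cell types. Their median timing was 2.69 in ESCs, 2.90 in NPCs, 3.22 in MEFs and 2.86 in XEN cells. ESCs gave the lowest of the 4 values in 43.8% of the windows, XEN cells in 27.2%, NPCs in 19.4% and MEFs in 9.59%. The spread over the windows was narrowest in ESCs (SD 0.24) and widest in MEFs (SD 0.46). The scale of the deposited values differed between the sets, since the median over all autosomal windows was -0.66 in ESCs and -0.68 in NPCs but -0.02 in MEFs and -0.01 in XEN cells, so a threshold of 2 was stricter for ESCs and NPCs. Accordingly the early windows made up 62.5% of all windows above 2 in ESCs and 65.4% in NPCs, but 52.1% in MEFs and 47.6% in XEN cells.

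1 ESC line stood apart. The median over the windows was 2.82 in F121, 2.87 in F1219, 2.85 in F123 and 2.86 in Cas129, but 2.25 in F1216. Only 64.4% of the windows exceeded 2 in F1216, against 95.7% to 98.0% in the other 4 ESC lines. The feeder-grown F1216 cells, which the rule did not use, were similar with 63.3%, while feeder-grown F1219 cells had 94.0% and V6.5 cells 93.8%. All 5671 windows were above 0 in every line, embryo and unused set. Early in every cell type thus holds for the averages and for most lines, and in F1216 for early replication but not for the threshold. Leaving F1216 out kept 98.3% of the windows.

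**Figure D1:**
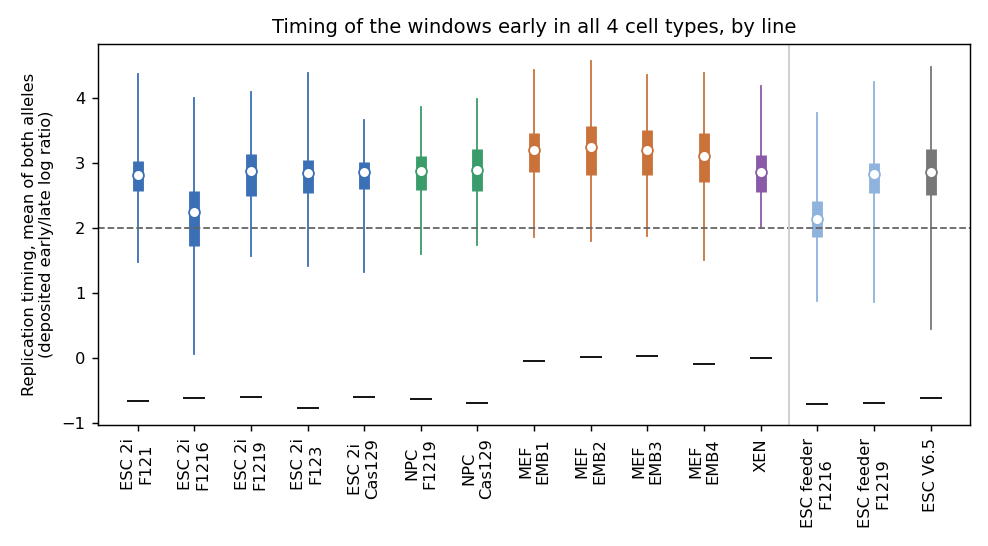
Timing of the 5671 windows (mean of both alleles, deposited log ratio) in each line or embryo: circle, median over windows; thick bar, quartiles; thin line, lowest to highest; black dash, median of all autosomal windows; dashed line, the threshold of 2. Sets right of the grey line were not used to choose the windows, and F1216 ESCs have the lowest medians in both media (2.25 in 2i and 2.14 on feeders).

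Timing varied together in some pairs of cell types more than in others. Across the 5671 windows Pearson's r of timing was 0.56 for NPCs against MEFs, 0.37 for NPCs against ESCs and 0.24 for MEFs against ESCs, and lay between -0.03 and 0.12 for XEN cells against the other 3. Over all autosomal windows the same pairs gave 0.80 to 0.89. These values describe neighbouring windows of a range that the rule cut off at 2, and ESCs and NPCs share 2 lines.

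The windows with the highest lowest-of-4 value lay at chr15:79200001-79300000, with Pick1, Slc16a8 and Baiap2l2. Pick1 encodes a PDZ-domain protein that traffics membrane receptors. Its window had 3.11 in ESCs, 3.40 in NPCs, 3.74 in MEFs and 3.31 in XEN cells. The window with Polr2j, Lrwd1 and Alkbh4 had 3.10, 3.34, 3.53 and 3.50 in the same order. Lrwd1 encodes a protein that binds the origin recognition complex. The other windows of the top 10 held Mfsd4a, Mybbp1a with Smtnl2 and Ggt6, Cyth2 with Kcnj14 and Grwd1, Nrxn2, Dmc1, Orai2 with Prkrip1, and 1, without a gene start, lay at Cacna2d2. At the threshold, the 3 windows just inside were those of Inf2 (2.001 in ESCs), P4htm and Arih2 (2.001 in XEN cells) and Gtse1 and Trmu (2.002 in ESCs). Just outside were those of Nol10 and Atp6v1c2 (1.999 in NPCs), a window without a gene start at chr2:59750001-59800000 (1.999 in MEFs) and that of Rbbp5 (2.00 in XEN cells).

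The windows gathered in long blocks. Joined over gaps of at most 2 windows they formed 438 runs, of which 351 reached 200 kb and held 97.1% of the windows. The median length of those 351 domains was 600 kb, and 80 domains of more than 1 Mb held 49.3% of the windows. The longest, 4500 kb at chr5:121100001-125600000, held 84 of the windows and 93 protein-coding genes, beginning with Ptpn11, a phosphatase of growth factor signalling, Rpl6, Hectd4, Trafd1, Naa25 and Erp29. Its mean timing was 2.80 in ESCs, 3.14 in NPCs, 3.30 in MEFs and 2.79 in XEN cells. The next was 3850 kb at chr19:43550001-47400000 with 74 genes, among them Nkx2-3, Cox15 and Abcc2. Chromosomes 4 and 8 each had a domain of 3400 kb, with Nudc and Nr0b2 in the first and Map1lc3b, an autophagy protein, in the second. The remaining 6 of the 10 longest measured 2600 to 3050 kb and included the Git1 and Taok1 domain on chromosome 11, that of Hmga1 and Rps10 on chromosome 17, and that of Smad3 and Smad6, which transmit and restrain TGF-beta signals, on chromosome 9. Chromosome 11 had the highest share, with 732 of 2279 windows (32.1%), followed by chromosome 19 with 20.9%. The lowest shares were on chromosome 13, with 81 of 2196 (3.69%), and chromosome 3, with 4.68%.

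Gene content differed from the rest of the genome by a wide margin. The windows held the starts of 6697 protein-coding genes, which is 36.7% of the 18252 genes that could be placed, on 12.9% of the windows. That is 23.6 genes per Mb, against 8.31 over all autosomal windows and 1.86 where all 4 cell types were below -2. Windows above 2 in 1 cell type but not in all 4 lay between, with 15.3 per Mb for ESCs, 13.2 for NPCs and 11.1 for both MEFs and XEN cells. Of windows with no gene start 6.06% were early in all 4, of those with 1 start 23.5%, with 2 39.4%, and with 3 or more 57.8%. Even so, 33.7% of the early windows held no gene start (71.8% of all windows). Only 8.39% overlapped no gene body, against 42.2% of all.

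Within the early windows the number of genes went with timing in 3 of the 4 cell types. From windows with no gene to those with 3 or more, the median went from 2.66 to 2.75 in ESCs, from 2.80 to 3.11 in NPCs and from 3.11 to 3.36 in MEFs, while in XEN cells it was 2.90 and 2.80. The fullest window, chr19:6050001-6100000, held 9 protein-coding genes, among them Fau, whose product contains a ribosomal protein, Mrpl49 of the mitochondrial ribosome, Vps51 and Cdca5, a regulator of sister chromatid cohesion. It had 2.72 in ESCs, 3.39 in NPCs, 3.64 in MEFs and 2.29 in XEN cells. Genes in the early windows had a median length of 15.1 kb, and 4.91% were longer than 100 kb, compared with 18.5 kb and 11.9% for all genes. In the late windows the median was 2.75 kb while 17.3% exceeded 100 kb.

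Other gene classes were spread unevenly. Of miRNA genes 38.8% and of tRNA genes 33.6% lay in the early windows, close to the 36.7% of protein-coding genes, while lncRNA genes reached 22.3% and pseudogenes 14.3%. None of the 327 V segments of the antigen receptors did. Only 3 of the 351 domains held no protein-coding gene start. They lay at chr14:64500001-64700000 with Mir124a-1, whose product is the brain miRNA miR-124, at chr16:29600001-29900000 overlapping Opa1, and at chr18:82650001-82950000 overlapping Zfp236 and Zfp516.

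Some lists of genes that all cells use lay mostly in these windows, while others, given further below, did not. For comparison, 36.7% of all placed protein-coding genes did. Of the proteasome subunits 21 of 30 were inside, of the cytosolic ribosomal proteins 42 of 67, of the core spliceosome proteins 17 of 27 and of the RNA polymerase II subunits 7 of 11. The 7 were Polr2a, Polr2d, Polr2f, Polr2g, Polr2h, Polr2i and Polr2j, and the 4 outside were Polr2b, Polr2e, Polr2k and Polr2l. Of the genes often used as expression references 14 of 20 were inside, including Gapdh (2.80 in ESCs, 3.06 in NPCs, 3.49 in MEFs and 3.32 in XEN cells), Eef2 and B2m. Actb, Tbp, Sdha, Vcp, Gpi1 and Chmp2a were outside. None of these lists had a member in the windows late in all 4 cell types. The same held for the complex I, synthetase, replication, pluripotency, neural, fibroblast and endoderm lists described below, while the imprinted list had 1 there. The absence therefore does not set the lists of broadly used genes apart.

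Shares nearer the background were found for subunits of respiratory complex I (12 of 29) and cytosolic aminoacyl-tRNA synthetases (7 of 17, among them Aars, Mars1 and Yars). The genes of replication origin recognition and the replicative helicase lay below the 36.7% of all placed protein-coding genes, with 5 of 25 inside (20%). These were Orc1, Orc6, Cdt1, Gins4 and Ticrr. Orc1 had 2.59 in ESCs, 2.64 in NPCs, 2.05 in MEFs and 3.06 in XEN cells. Of the imprinted genes only 3 of 36 were inside, namely Igf2r, H13 and Mcts2, the last of which lies within H13.

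Some genes with restricted expression nevertheless lay in windows that were early everywhere. Of the pluripotency genes 4 of 18 did: Pou5f1 (2.47 in ESCs, 2.26 in NPCs, 3.23 in MEFs and 3.05 in XEN cells), Dppa5a, Tdgf1 and Lin28a. Of the neural genes 3 of 16 did, Nes, Hes5 and Tubb3. Of the fibroblast genes 5 of 20 did, Col1a1, Thy1, Pdgfrb, S100a4 and Sparc. Col1a1, the main fibrillar collagen gene, had 2.41 in ESCs, 3.16 in NPCs, 3.68 in MEFs and 3.04 in XEN cells. Of the endoderm genes 3 of 19 did, Lamc1, Sparc and Amn. As a check of the labels, the defining markers of each cell type were earliest in their own cell type for 6 of 9 ESC, 6 of 8 NPC, 7 of 8 MEF and 5 of 7 XEN markers. The values were compared as deposited, and the higher medians over all windows in MEFs and XEN cells favour those cell types here. Expression was not measured.

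Gene families showed the extremes. The Hox genes, which pattern the body axis, split by cluster. All 10 measured Hoxb genes and all 9 Hoxc genes were in the early windows, with timing between 2.07 and 3.54 in the 4 cell types. None of the 11 Hoxa genes was, because XEN cells had 0.59 to 0.89 there while the other 3 cell types had 2.35 to 3.05. None of the 9 Hoxd genes was either, with 0.57 to 1.61 in ESCs, NPCs and MEFs and at most -1.61 in XEN cells. Of the olfactory receptors 12 of 828 were inside and 242 in the late windows, and of the vomeronasal receptors 1 of 217 (Vmn1r1) and 74. The protocadherins had 2 of 67 inside, Pcdh1 and Pcdh12. The keratins had 11 of 53, the Zfp zinc fingers 101 of 321 and the solute carriers 132 of 331.

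**Figure D2:**
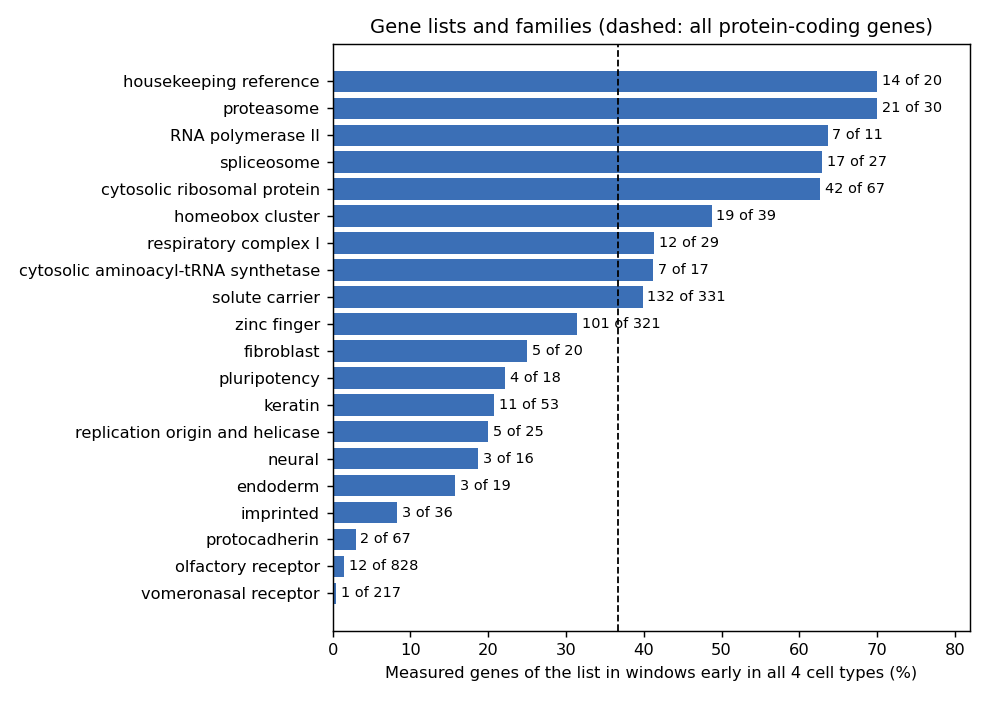
Share of the measured genes of each list or symbol family whose start lies in windows early in all 4 cell types, in percent; numbers beside the bars are counts, and the dashed line is the 36.7% of all placed protein-coding genes. Proteasome and reference genes reach 70%, while olfactory and vomeronasal receptors stay below 2%.

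The early windows differed less between the 129 and Cas alleles than the rest of the genome. In the 5 ESC lines the share whose alleles lay 0.5 or more apart was 21.8% in F121, 30.7% in F1216, 7.49% in F1219, 11.1% in F123 and 10.3% in Cas129, a mean of 16.3% ± 9.72 (SD, n = 5). Over all autosomal windows it was 35.9% ± 4.59. In MEFs the values were 12.5% ± 1.65 and 20.2% ± 0.55 (SD, n = 4). In NPCs they were 15.0% in F1219, which has 1 profile, and 0.97% in Cas129, against 21.2% and 19.4% over all windows. The share was lower in the early windows in 11 of 11 sets of profiles, in which F1219 and Cas129 count both as ESCs and as NPCs. In V6.5 cells, whose alleles are 129 and C57B6, it was 0.37% in the early windows and 3.68% over all windows. In XEN cells, C57B6 against Cas, it was 23.3% and 32.8%.

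The differences repeated less well between profiles than elsewhere. The correlation of the allelic difference between the 2 profiles of a line, over the 5671 windows, was 0.27 to 0.44 in the 4 ESC lines with 2 profiles and 0.10 to 0.14 in the 4 embryos. Over all autosomal windows it was 0.61 to 0.76 and 0.52 to 0.62. The scatter of a single profile, as the SD of the difference between repeats divided by the square root of 2, was 0.40 to 0.45 in the MEF early windows, against 0.30 to 0.34 over all windows. In ESCs it was the other way round in all 4 lines, with 0.25 to 0.47 in the early windows and 0.31 to 0.52 over all, and in the Cas129 NPCs it was 0.20 and 0.50. In XEN cells it was 0.54 and 0.47. Between ESC lines the median r was 0.33 in the early windows and 0.67 over all, and between embryos 0.19 and 0.68. Neighbouring windows are not independent, and profiles of a line share its genome.

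A difference was called where limma, fitted on all 43941 windows with lines and embryos as replicates, gave a Benjamini-Hochberg adjusted p below 0.05 and the mean difference reached 0.5 in size. Nothing states whether profiles of a line were separate cultures. In ESCs 240 of the 5671 early windows were called (4.23%), whereas 26.4% of all autosomal windows were. Of the 240, 98 had the 129 allele earlier (13.8% of all windows were called that way) and 142 the Cas allele (12.6%). That split depended on scale and on 1 line: after centring each allele column on its median it was 70 to 192, and without F1216 it was 153 to 140 of 293. In MEFs 95 were called, or 1.68%, against 12.6% of all windows. Of these 44 had 129 earlier (5.36% of all windows) and 51 Cas earlier (7.21%). Centring turned that split to 54 and 47, and quantile normalization gave 27 and 44.

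In NPCs 5 windows were called, or 0.088%, against 4.03% of all. Of these 4 had 129 earlier (2.16% of all) and 1 had Cas earlier (1.87%). With 2 lines the NPC calls were unstable: 10 were called without the F1216 ESCs, and 3 without EMB1, EMB2 or EMB4. The fit gave all groups 1 shared estimate of the spread. The NPC p-values therefore rest largely on the spread of ESC lines and embryos. Fits without either NPC line leave 1 line, so their NPC calls have no replicate. Windows above 2 in the same cell type but not in all 4 had higher shares, with 8.79% called in ESCs, 5.23% in MEFs and 0.43% in NPCs. Windows late in all 4 had 20.9%, 11.5% and 3.68%. In the early windows 95.5% of the ESC means, 97.8% of the MEF means and 98.2% of the NPC means were below 0.5 in size.

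**Figure D3:**
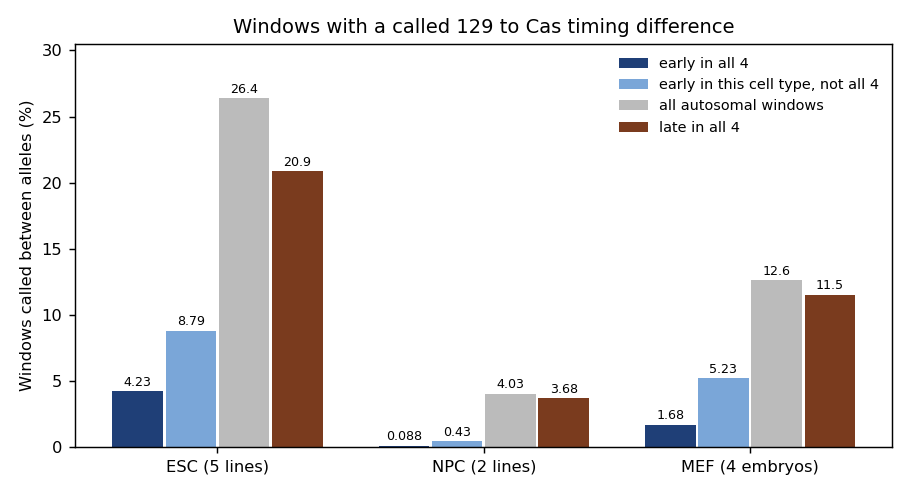
Percent of windows called between the 129 and Cas alleles by limma (adjusted p below 0.05, size 0.5 or more) in ESCs, NPCs and MEFs. In each cell type the windows early in all 4 have the lowest share, 4.23%, 0.088% and 1.68%.

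The MEF calls rest on embryos whose labels the X chromosome did not always match. EMB1, labelled female, had a flat 129 X track (SD 0.25 and 0.30), as the male-labelled EMB4 had, and EMB3, labelled male, had structure on both X tracks as EMB2 had. Without EMB1 and EMB3 15 early windows were called in MEFs, and the fit restricted to lines labelled female also called 15, each with fewer embryos. Calls over all autosomal windows were fewer in these fits too, at 3.90% and 4.68%, beside 0.265% of the early windows in both. With any single embryo left out it was 82 or more.

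Called windows lay towards the domain edges and the low end of early timing, which is a description and carries no test. Edges and timing classes both come from the timing that chose the windows, and a later allele lowers the mean of both. In ESCs 10.1% of the 843 windows at a domain edge were called, 5.04% of those 1 to 3 windows inside, 2.27% of those 4 to 9 inside and 1.85% of those 10 or more inside. In MEFs the same classes had 3.20%, 1.65%, 1.65% and 0.72%. In 4 equal classes by the lowest of the 4 timing values, from latest to earliest, 151, 66, 16 and 7 windows were called in ESCs and 48, 24, 13 and 10 in MEFs. The ESC-called windows held 0.75 gene starts on average, against 1.20 in those not called. The MEF-called windows held 1.03 against 1.18. The ESC calls joined into 98 regions, 38 of them a single window, and the MEF calls into 45.

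Some calls could be followed in profiles that the fit did not use. Of the 98 ESC windows with 129 earlier, 85 had the same sign in feeder-grown F1219 cells, and of the 142 with Cas earlier, 133 had (86.7% and 93.7%, against 92.4% and 93.3% of all ESC-called windows of the genome). In feeder-grown F1216 cells it was only 54 and 84, although 85 and 122 had that sign in the F1216 cells in 2i. Of all ESC-called windows of the genome, 83.4% with 129 earlier and 83.1% with Cas earlier kept their sign in feeder-grown F1216 cells. In XEN cells, with C57B6 in place of 129, 55 of the 98 and 88 of the 142 had the same sign (56.1% and 62.0%), near the 52.3% and 58.2% of all ESC-called windows. For the MEF calls XEN cells shared the sign in 20 of 44 and 20 of 51 (45.5% and 39.2%), against 54.6% and 64.0% of all MEF-called windows.

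The region with the clearest difference was chr15:99600001-99850000. It holds Racgap1, Asic1, an acid-sensing ion channel, Aqp6, an aquaporin, Smarcd1, a subunit of the SWI/SNF chromatin remodeller, Gpd1 and Cox14, and lies at least 18 windows inside an early domain of 2350 kb. The 129 allele was earlier in every 129/Cas line: in ESCs by 0.86 in F121, 0.79 in F1216, 0.99 in F1219, 1.00 in F123 and 0.95 in Cas129, in NPCs by 0.70 in F1219 and 0.60 in Cas129, and in MEFs by 0.69, 0.84, 1.11 and 1.36 in EMB1 to EMB4. These values cover the 3 early windows called in ESCs. Their means were 0.92 ± 0.09 (SD, n = 5), 0.65 ± 0.07 (SD, n = 2) and 1.00 ± 0.30 (SD, n = 4), and no value was at or below 0. In the window with the Racgap1 start limma gave 1.35 ± 0.14 (SE, adjusted p = 6.32e-06) in ESCs, 0.96 (adjusted p = 0.032) in NPCs and 1.64 ± 0.16 (SE, adjusted p = 2.78e-05) in MEFs. The NPC call was lost when either NPC line, or EMB1 and EMB3 together, was left out.

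Along that domain the difference was a local dip of the Cas allele. In ESCs the Cas allele went from 3.16 in the window 100 kb before that of Racgap1 to 1.52 in it, 0.97 in the next and back to 2.32 at 200 kb after it, while the 129 allele went from 3.20 through 2.87 and 2.71 to 2.47. In MEFs the lowest Cas value was 2.09, against 3.64 for 129, in the window after Racgap1, and in NPCs it was 1.83 against 3.16 in the same window. The 2 windows 50 and 100 kb after that of Racgap1 fell below 2 in ESCs (1.84 and 1.90) and so are not among the 5671. They are left out of the means above, although their ESC differences were 1.743 and 1.455. In XEN cells C57B6 was earlier than Cas here by 1.18 and 0.76 in the 2 profiles, while 129 and C57B6 differed by 0.08 in V6.5 cells.

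**Figure D4:**
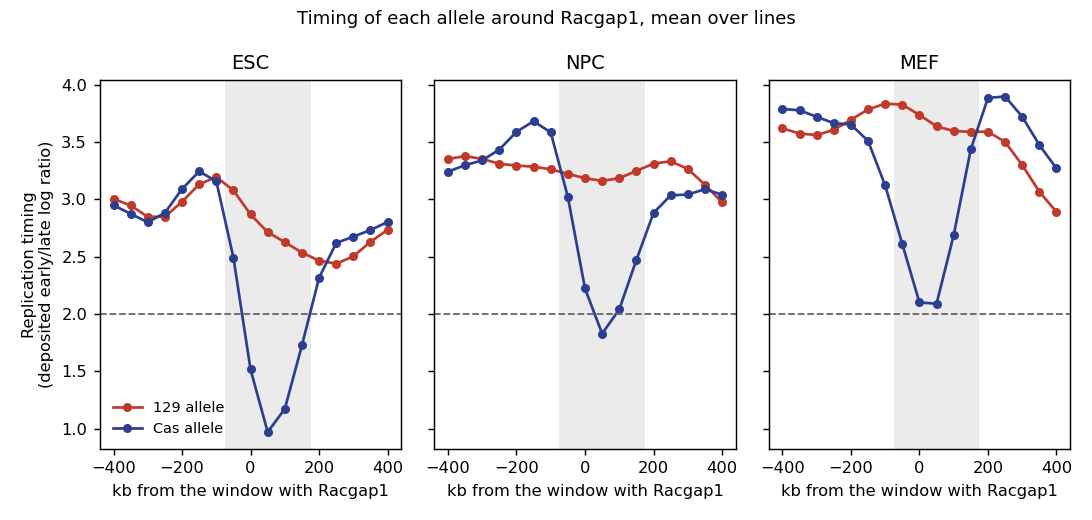
Timing of the 129 (red) and Cas (blue) alleles in 50-kb windows around the window that holds the Racgap1 start, as means over 5 ESC lines, 2 NPC lines and 4 MEF embryos; the x axis is the distance in kb, grey marks the called ESC region and the dashed line is 2. The Cas allele dips to 0.97 in ESCs, 1.83 in NPCs and 2.09 in MEFs, while the 129 allele stays at 2.44 or higher.

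The other regions called in the same direction in more than 1 cell type were 8. Of the 240 ESC and 95 MEF windows 21 were shared (8.75% and 22.1%), 18 of them in the same direction. No matching overlap over all autosomal windows is given, so these shares describe the early windows only. At chr17:35300001-35450000, which holds H2-Q1, H2-Q2, H2-Q4, H2-Q6 and H2-Q7 of the major histocompatibility complex, 129 was earlier by 0.54 ± 0.39 in ESCs (SD, n = 5, lowest 0.02 in F1219), by 0.68 and 1.08 in the 2 NPC lines and by 0.87 ± 0.28 in MEFs (SD, n = 4). Every line was positive, but the ESC call at its peak window (0.57 ± 0.20 SE, limma adjusted p = 0.033) was lost under 7 of 18 alternatives, among them leaving out F121, F1216, F123 or Cas129. The MEF call was lost under 4 of 18, among them leaving out EMB1 or EMB3, and the NPC call at H2-Q1 under 4 of 18, among them leaving out either NPC line. H2-Q genes are close copies of each other, and what that does to allele assignment was not tested. At chr9:78200001-78350000, with the glutathione transferase genes Gsta4 and Gsta1, 129 was earlier by 0.82 ± 0.52 in ESCs and 0.75 ± 0.22 in MEFs, while the NPC lines had -0.01 and -0.21. The ESC values fell apart into 1.35, 1.05 and 1.16 in F121, F1216 and Cas129 and 0.25 and 0.28 in F1219 and F123. Afap1, which encodes an actin filament-associated protein, and Zfp11 had single windows with 129 earlier in both ESCs (0.77 and 0.54) and MEFs (0.67 and 0.74). At Afap1 F1216 ESCs had -0.13, against 0.71 to 1.22 in the other ESC lines. At Zfp11 the ESC call was lost after median centring, with feeder profiles averaged in and without Cas129, and the MEF call in the female-labelled fit and without EMB1 and EMB3.

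The Cas allele was the earlier in the remaining shared regions. They included chr9:121000001-121100000, which holds no gene start. It is the end of a MEF region of early windows that starts at Ctnnb1, the gene of beta-catenin. That start is set by the threshold of 2. Before it, every window of chr9:120500001-120900000 was also called in MEFs, with -0.66 to -0.74. Their MEF timing was 1.58 to 1.99, so they are not among the early windows. Over that MEF region, chr9:120900001-121100000, the difference was -0.64 in F121, -0.17 in F1216, -0.70 in F1219, -0.59 in F123 and -0.14 in Cas129. It was -0.96 and -0.33 in the NPC lines and -0.58, -0.75, -0.73 and -0.51 in the embryos, so no line had 129 earlier. In the MEF peak window limma gave -0.73 ± 0.12 (SE, adjusted p = 0.000898). At chr13:98600001-98750000, with Tmem174 and Tmem171, the difference was -0.63 ± 0.22 in ESCs and -0.76 ± 0.18 in MEFs (SD, n = 5 and n = 4), while the NPC lines had 0.12 and -0.20. In the same 700-kb domain, chr13:99100001-99250000 with Zfp366, a zinc finger gene, had -0.56 ± 0.26 and -0.67 ± 0.06. The window chr17:12800001-12850000, with Mas1 and Mrgprh as the nearest genes, had -0.52 and -0.56, and its ESC call was lost under 4 of 18 alternatives, among them leaving out F1216 or F123.

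The other ESC regions of largest difference lay at domain ends, and most had no window called in MEFs. Over chr13:97300001-97500000, without a protein-coding gene start within 50 kb, 129 was earlier by 0.66 in F121, 1.29 in F1216, 0.90 in F1219, 0.89 in F123 and 1.11 in Cas129. In NPCs the values were -0.21 and 0.20, and in MEFs they lay between -0.07 and 0.20, so the ESC lines did not overlap with either. At chr16:94650001-94750000 the ESC mean was 0.79 ± 0.20 (SD, n = 5) and the MEF mean 0.32 ± 0.11 (SD, n = 4). With Cas earlier, the Ipo5 region, whose gene encodes an importin, had -0.83 ± 0.31 in ESCs and -0.10 ± 0.42 in MEFs. The Tor1aip1 and Tor1aip2 region, genes of the inner nuclear membrane, had -0.81 ± 0.77 and -0.10 ± 0.24, with 0.48 in F1216. The Setd7 region, whose gene encodes a lysine methyltransferase, had -0.88 ± 0.50 in ESCs and -0.23 ± 0.07 in MEFs. Klhl25, a substrate adaptor of a ubiquitin ligase, lay in a lone window near the threshold (2.01 in ESCs and NPCs). Its difference was -1.81, -1.83, -1.34 and -1.61 in F121, F1219, F123 and Cas129 but 0.77 in F1216, where the sign was opposite. The embryos had the same sign there as most ESC lines, with -0.62 ± 0.21 (SD, n = 4), below the call.

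All embryos have Cas named first, as only Cas129 has among the ESC lines. Comparisons of ESCs with MEFs therefore partly mix cell type with parent order, and these were not separated. Tested directly, the allelic difference changed between ESCs and MEFs in 292 early windows (5.15%), while 27.5% of all windows did. In 168 of them it was higher in MEFs (12.4% of all windows) and in 124 lower (15.2%). That split also moved with scale, to 259 and 68 after median centring, and was 181 and 176 without F1216. Between NPCs and ESCs it changed in 80 early windows (1.41%), against 16.1% of all. F1219 and Cas129 are in both groups, and the fit did not pair them. The split in the early windows was 49 higher and 31 lower in NPCs, beside 3513 and 3542 over all autosomal windows. After quantile normalization it was 48 and 43 in the early windows.

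At Ctsb, which encodes the lysosomal protease cathepsin B, the direction turned. At chr14:63050001-63150000 the Cas allele was earlier in all 5 ESC lines, with -0.66, -0.73, -0.72, -1.01 and -0.84 in F121, F1216, F1219, F123 and Cas129. The 129 allele was earlier in all 4 embryos, with 0.75, 0.60, 0.58 and 0.66, and the NPC lines had 0.07 and -0.03. The groups did not overlap, and the change at the peak window was 1.45 ± 0.12 (SE, limma adjusted p = 3.27e-06). The Tbc1d31 window at chr15:57900001-57950000 had -0.87 ± 0.56 in ESCs, with 0.14 in F1216 and -1.08 to -1.15 in the others, and 0.65 ± 0.09 in MEFs, a change of 1.52 ± 0.24 (SE, limma adjusted p = 0.000468). Before the Tbc1d31 window, every window of chr15:57500001-57900000 was called in both cell types. The differences there were -0.87 to -1.59 in ESCs and 0.53 to 0.89 in MEFs, and F1216 ESCs had -0.58 to -2.17. Their ESC timing was -0.98 to 1.98, so they are not among the early windows. The window of Atad2, in the 250-kb domain of the Tbc1d31 window, changed by 1.11 ± 0.26 (SE, limma adjusted p = 0.00531). Around Traf3ip2, an adaptor of the interleukin-17 receptor, the MEF values were 0.74, 0.71, 0.64 and 0.73 and the ESC mean -0.35, with -1.29 in F1216 and between -0.28 and 0.08 in the others. The region of Rasl10b, Mmp28 and Taf15 on chromosome 11 had -0.81 ± 0.24 in ESCs and 0.19 ± 0.45 in MEFs.

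In the other direction, the window of Bdkrb2, a bradykinin receptor gene, at chr12:105550001-105600000 had 0.22 ± 0.40 in ESCs and -0.84 ± 0.09 in MEFs (SD, n = 5 and n = 4), with -0.97, -0.79, -0.84 and -0.76 in the embryos. The change was -1.06 ± 0.19 (SE, limma adjusted p = 0.000962). Over chr17:83900001-84150000, which holds no gene start and lies next to Zfp36l2, the gene of an mRNA-binding protein, the ESC lines had 0.47 to 1.05 and the embryos -0.22 to -0.07, with a change at the peak of -1.11 ± 0.13 (SE, limma adjusted p = 5.39e-05). Nckap1l and Pde1b on chromosome 15 and Ckap4 on chromosome 10 had ESC means of 0.67 and 0.62 and MEF means of -0.17 and -0.31.

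**Figure D5:**
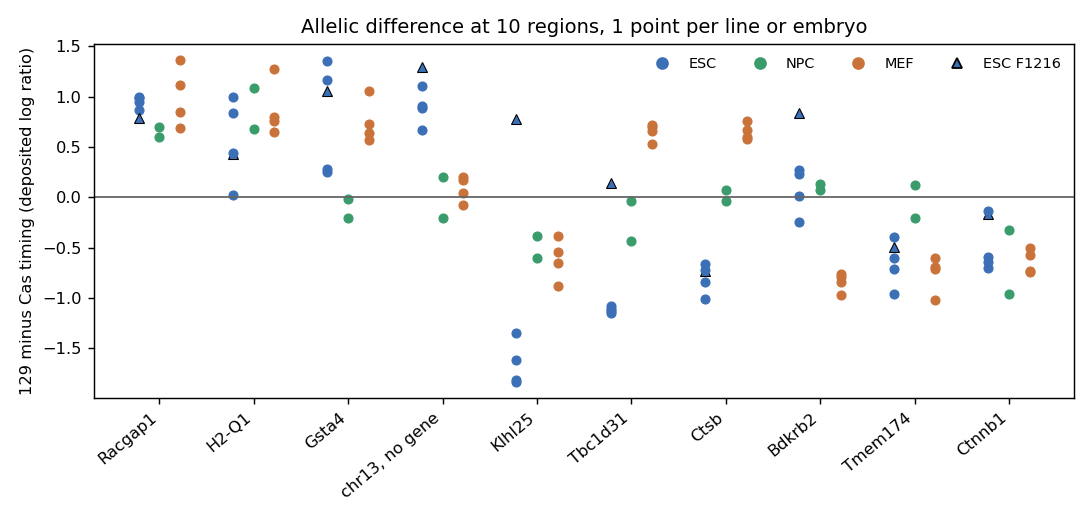
Difference in timing, 129 minus Cas (deposited log ratio), averaged over the called windows of each region. Each point is a line within a cell type or an embryo, and F1219 and Cas129 appear both as ESCs and as NPCs. F1216 ESCs are outlined triangles. Racgap1 is positive in all 11, Ctnnb1 negative in all 11, and Ctsb turns from negative in the ESC lines to positive in the embryos.

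NPC calls beyond those of Racgap1 and H2-Q1 were the window of Apol9b, with 1.45 and 0.56 in F1219 and Cas129 (limma adjusted p = 0.037), and a window next to Ankrd46, with -0.88 and -0.48 (limma adjusted p = 0.045). They were lost under 10 and 9 of 18 alternatives. Further MEF calls with Cas earlier were those of Prrc2b and Pomt1 (-0.65 ± 0.51, with -0.84 and -1.28 in EMB1 and EMB2 and -0.27 and -0.21 in EMB3 and EMB4), a call lost without EMB1 or without EMB2.

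As background, 4.23% of the early windows were called in ESCs and 1.68% in MEFs, against 26.4% and 12.6% of all windows. A few list genes lay in called early windows, and no share was compared for the lists. In ESCs these were Rps3, a protein of the small ribosomal subunit (-0.64 ± 0.13 SE, limma adjusted p = 0.00146), and the imprinted receptor gene Igf2r (-0.53 ± 0.10 SE, limma adjusted p = 0.0011). In both the Cas allele was the earlier on average. In MEFs they were Snrpd3 of the spliceosome (0.53), Rab7 of late endosomes (0.54), Dppa5a (0.52) and Orc6 (-0.53), with limma adjusted p between 0.0122 and 0.0455. Cas129 is the only ESC line with Cas named first, so parent order cannot be told apart from the line. In limma's contrast of Cas129 with the lines that have 129 first no window was called, early or not (0.0% of 43941), with 39 early windows and 1358 windows in all at an unadjusted p below 0.05. With a single line on 1 side this says nothing about the absence of such differences.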

How the data were processed

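The deposited table gives 1 early-to-late log ratio per allele, profile and 50-kb window of mm10, read here as log2, since the log base is not stated. Per the submitters' processing notes Bowtie2, SAMtools and bedtools were used. How reads were given to alleles, how windows were chosen, smoothed or scaled and how deep the libraries were is not given in the sources used here, so counting precision is unknown. Columns were matched to groups by name, each to a pair of an early and a late library, and no column went unused. Timing was the mean and the allelic difference 129 minus Cas of the 2 alleles, averaged per line or embryo. Differences were tested with limma 3.58.1 in R 4.3.3 (lmFit, eBayes, group means of 5 ESC lines, 2 NPC lines and 4 embryos, two-sided, Benjamini-Hochberg over all 43941 autosomal windows) and tested on simulated data. All groups shared 1 estimate of the spread, and lines present both as ESCs and as NPCs were not paired. Tables were made with pandas 2.3.3 in Python 3.11.15.

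Genes came from RefSeq (GRCm38.p6, the assembly of mm10). A gene was placed by its promoter entry (79.8% of the 18252 placed protein-coding genes) or else by the midpoint of its body, which concerns all genes of chromosome 18. Regions join called windows of 1 direction over gaps of at most 2 windows, and carry up to 6 genes, or else the nearest within 50 kb. Values of a region are means over its called early windows, and windows in the gaps are left out. Named were the 10 longest domains, the 10 windows with the highest lowest-of-4 timing, the 5 largest differences per direction in each comparison, up to 10 regions shared by cell types, list genes in called windows and the 3 windows on either side of the threshold. For the change between MEFs and ESCs the windows were joined in the same way. Members, gene lists, families, rules and printed promoters were chosen with earlier results of these data known. Alternatives are given in the closing section. A region and a gene that these rules name are not reported here.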

Additional observations from a re-analysis of the deposited data

Results flagged for a closer look

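Of 80 groups of 4 or 5 samples examined, 14 had a sample far from the others, and 11 of the 14 were F1216 ESCs. For a single group chance gives about 1 in 20. These groups overlap, and most are regions chosen for their differences, so the count is no test of an excess. F1216 had the lowest median timing over the early windows of the 5 ESC lines (2.25) and the lowest share above 2 (64.4%). Among the embryos EMB4 had the lowest share above 2 (98.0%). In the allelic difference F1216 was the highest of the ESC lines at Klhl25 (0.77), Setd7 (-0.0088), the Tbc1d31 window (0.14), the wider Tbc1d31 region (0.78), the Atad2 window (0.82), the region of Gm52030 and Zfp366 (0.0090) and the narrower Zfp366 region (-0.10). It was the lowest at Traf3ip2 (-1.29) and at Ckap4 (-0.38). F123 was the highest ESC line over chr15:99550001-99700000, with Aqp2 and Racgap1 (0.81), and EMB2 the highest embryo in the wider Tbc1d31 region (1.02).

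Effects that differed between ESCs and MEFs by limma's test of the difference were positive changes at Tbc1d31 (1.52), Ctsb (1.44), Atad2 (1.11), Traf3ip2 (1.05) and Rasl10b (1.00), as means over each region, MEF minus ESC. Negative changes were found at Bdkrb2 (-1.06), the chr13 region without a gene (-1.03), the region next to Zfp36l2 (-0.94), Ckap4 (-0.93) and Nckap1l (-0.85). Parent order also differs between the embryos and all ESC lines but Cas129.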

How the results depend on the processing

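The number of early windows stayed between 5473 and 5705 when each line, embryo or XEN profile was left out, and was 7814 at a threshold of 1.5, 2803 at 2.5, 6984 after centring each cell type, 5379 after quantile normalization and 4974 when both alleles had to exceed 2. Gene starts per window were 1.18, and 1.82 when any overlap of a gene body counted. The count called in ESCs (240) was 651 with no minimum size and 8 with a minimum of 1. For MEFs (95) these were 263 and 2, for the change between MEFs and ESCs (292) 13 with a minimum of 1, for NPCs (5) 1 and for the change between NPCs and ESCs (80) 5. Lines labelled female gave 2 in NPCs, 15 in MEFs, 96 for MEF minus ESC and 27 for NPC minus ESC. Without EMB1 and EMB3, a choice made after seeing the data, there were 1, 15, 112 and 29. Feeder profiles averaged in gave 53 and the line as a random block 51 for NPC minus ESC. Leaving out each line or embryo gave 218 to 293 in ESCs, 0 to 10 in NPCs, 82 to 109 in MEFs, 229 to 357 for MEF minus ESC and 2 to 135 for NPC minus ESC. The contrast of Cas129 with the other ESC lines called no window under the minimum-size settings, centring, quantile normalization or the left-out lines it was run for. The cause of these shifts was not tested beyond the smaller groups some of them use.

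Profile numbers do not pair the samples. Over 36 pairs of lines the differences between profiles 1 and 2 correlated between -0.07 and 0.02. Fitted on profiles with a replicate block, 9 windows were called in NPCs, 235 in ESCs, 116 in MEFs, 375 for MEF minus ESC and 73 for NPC minus ESC. Of 41 peak windows tested in the named regions 22 were called under all 18 alternative fits at the minimum size of 0.5 and 19 lost the call under at least 1, and none changed direction. The minimum of 1 is not among the 18, and it removes every peak below that size. Depth is unknown, so the limit it sets cannot be given.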
